A study of Mus musculus with 47 samples.

Results

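The annexins are the family followed here, on arrays from a mouse epidermal cell line with and without silencing of Anxa2. The members were Anxa1 to Anxa8 and Anxa11, each read from the probe set that carries its symbol and no other and has the highest mean over all arrays. Of the 9 members, 8 had such a probe set and all 8 were among the 8675 genes tested, out of 12393 genes with a probe set of 1 symbol. The only probe set naming Anxa11 carries 3 symbols, so Anxa11 has no value of its own here.

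Annexins are cytosolic proteins that bind acidic phospholipids when calcium rises, through a core of repeated helical domains and a variable amino-terminal tail. Members gather at sites of membrane damage, on endosomes and under the plasma membrane, where they take part in repair, vesicle traffic and links to actin. Annexin A2 pairs with S100A10 in a complex that binds plasminogen at the cell surface, and annexin A1 and annexin A2 are both known as substrates of tyrosine kinases.

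The cells were JB6, labelled as progenitor cells, an established line from mouse epidermis known from work on tumour promoters. AnxA2 shRNA cells carried a retroviral short hairpin RNA against Anxa2 and Ps vector cells carried the vector, both as stable lines under puromycin selection. Each line was taken 2 h and 24 h without radiation (sham exposure) and 2 h, 6 h and 24 h after 10 cGy or 100 cGy of X-rays, with no untreated group at 6 h. The 16 groups held 3 arrays each, except vector cells 24 h after 10 cGy with 2, which made 24 arrays of shRNA cells and 23 of vector cells. There was 1 shRNA line and 1 vector line, so that differences between the lines unrelated to Anxa2 are part of every line value and cannot be told apart from it. The labels give a loss of more than 95% of AnxA2 in the shRNA line, by Western blot and in situ hybridization. They do not say that replicates were separate cultures, so p-values measure the spread between arrays, which may be technical.

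All values are log2 signals from the robust multiarray average (RMA), on which a difference of 1 is a doubling. Differences were tested with limma in a fit of the 16 groups over all tested genes, and a change was called at a Benjamini-Hochberg adjusted p under 0.05. Array medians ran from 5.66 to 5.78. The 3 vector arrays at 2 h with replicate number 3 stood apart on the second principal component, which held 19.5% of the variance (-2.37 to 1.75, against -19.56 to -16.91 for the other 6 vector arrays at 2 h). Arrays at 24 h, of both lines, lay from 15.68 to 20.62 on this component. The 3 arrays were thus shifted toward the 24 h arrays. The difference between 3' and 5' Gapdh probe sets, a sign of RNA integrity, had a median of 0.03 and a highest value of 1.06 on shRNA arrays, against 0.00 and 0.59 on vector arrays. Of 8 keratinocyte markers measured, Krt1, Trp63, Dsp, Cdh1 and Epcam stood below the low-signal limit of 4.35 in both lines, whereas 6 of 7 mesenchymal markers stood above it in both. Krt14, a basal keratin, averaged 6.57 in shRNA cells and 3.84 in vector cells, and Krt10, a keratin of differentiating layers, 6.84 in shRNA cells and 7.33 in vector cells. Pdgfrb, of the mesenchymal list, averaged 8.63 in shRNA cells and 8.99 in vector cells, and the other 5 tested genes of that list were higher in shRNA cells. Log2 values summed over the 8 keratinocyte markers, those below the limit included, ran from 33.4 to 35.2 on shRNA arrays and from 30.7 to 33.1 on vector arrays. Among the tested ones, the line difference was 2.73 for Krt14, 0.14 for Krt5 and -0.48 for Krt10. For the 7 mesenchymal markers the sums ran from 69.9 to 72.0 on shRNA arrays and from 66.9 to 69.7 on vector arrays. The part of these differences in the line values below was not tested. When the 3 outlying vector arrays were left out, the line differences of the 8 annexins over all conditions ran from -1.55 for Anxa2 to 1.28 for Anxa8, and the same 6 were called.

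The promoters of the silenced gene and of 2 members that were higher in shRNA cells are shown as background to those results. They are the 250 bases before the RefSeq start on GRCm38.p6, at chr9:69453433-69453682 on the plus strand for Anxa2, chr14:34085729-34085978 on the plus strand for Anxa8 and chr3:36475888-36476137 on the minus strand for Anxa5. Capitals mark matches to the AP-1 motif TGANTCA and to the TATA box TATAAA, searched on both strands.
Anxa2: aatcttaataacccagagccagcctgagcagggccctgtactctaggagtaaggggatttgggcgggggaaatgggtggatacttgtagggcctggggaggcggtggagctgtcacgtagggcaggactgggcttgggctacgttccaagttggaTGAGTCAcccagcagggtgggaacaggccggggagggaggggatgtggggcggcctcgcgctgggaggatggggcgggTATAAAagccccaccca
Anxa8: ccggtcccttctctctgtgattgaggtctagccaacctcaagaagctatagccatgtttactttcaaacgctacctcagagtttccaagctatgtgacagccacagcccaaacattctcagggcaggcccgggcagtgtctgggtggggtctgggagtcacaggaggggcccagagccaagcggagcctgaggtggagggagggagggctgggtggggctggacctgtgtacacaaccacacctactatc
Anxa5: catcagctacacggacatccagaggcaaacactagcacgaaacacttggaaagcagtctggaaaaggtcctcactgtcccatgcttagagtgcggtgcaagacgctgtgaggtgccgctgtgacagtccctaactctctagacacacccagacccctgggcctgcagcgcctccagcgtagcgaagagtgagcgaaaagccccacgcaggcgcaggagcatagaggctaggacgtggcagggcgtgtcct
The Anxa2 promoter held an AP-1 match 95 bases and a TATA box match 17 bases before the start, and neither was found in these windows of Anxa8 or Anxa5. Among all 32851 promoters of the table, 6.75% held the AP-1 letters and 12.4% the TATA letters. Of the 7 members with a promoter in the table, Anxa2 was the only one with an AP-1 match, and Anxa1 and Anxa2 had a TATA match. A match is a run of letters and not a site.

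The silenced gene and 5 other annexins differed between the lines. Averaged over the 8 conditions, Anxa2 was lower in shRNA cells, and Anxa8, Anxa3, Anxa5, Anxa7 and Anxa4 were higher, while Anxa6 and Anxa1 did not pass the test. Of the 7 annexins other than Anxa2, 5 were higher and 0 lower, with a median line difference of 0.22, against 0.02 over all genes tested. That median is the Anxa7 value, and the calls of Anxa7 and Anxa4 rest on the probe set chosen. The lines differed broadly, since 68.9% of all tested genes were called in this comparison (34.9% of tested genes higher, 33.9% lower). Nothing particular to the annexins is therefore read from the count of calls.

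Anxa2 had a lowest signal of 10.58, a median of 11.06 and a highest of 11.23 on shRNA arrays, against 12.25, 12.52 and 12.66 on vector arrays. No shRNA array reached the lowest vector array. The difference was -1.53 ± 0.03 (SE; adjusted p = 1.61e-33, limma), which leaves 34.5% of the vector signal (95% interval 33.1 to 36.0%). The loss of more than 95% in the labels was measured by other methods and is larger than this one. Anxa2 lies on chromosome 9 from 69453683 to 69491792. Another probe set of the gene fell by 0.74, and one near the bottom of the scale, with a mean of 2.47, showed 0.01 (adjusted p = 0.87).

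Anxa8, an annexin of epithelia that in human cells is found on endosomes, showed the largest increase of the 8. It ran from 8.37 through a median of 8.80 to 9.12 on shRNA arrays, against 6.54, 7.49 and 8.31 on vector arrays. The ranges did not overlap, although the lowest shRNA and the highest vector array were close. The line difference was 1.26 ± 0.03 (SE; adjusted p = 4.95e-29), or 2.39-fold, and the gene's other probe set gave 1.13 ± 0.07 (adjusted p = 1.42e-17). Anxa8 lies on chromosome 14 from 34085979 to 34100571.

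Anxa3, described in cell migration and vessel growth, ran from 11.29 through 11.59 to 11.84 on shRNA arrays, against 10.62, 10.71 and 10.87 on vector arrays. Every shRNA array was above every vector array, and the difference was 0.89 ± 0.02 (SE; adjusted p = 4.65e-30), or 1.85-fold. Anxa5, whose protein binds phosphatidylserine and is used to stain apoptotic cells, ran from 10.70 through 10.97 to 11.15 on shRNA arrays and from 10.39 through 10.47 to 10.63 on vector arrays. These ranges did not overlap either, with a smaller difference of 0.49 ± 0.02 (SE; adjusted p = 3.12e-20), or 1.41-fold. Anxa3 lies on chromosome 5 and Anxa5 on chromosome 3.

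Anxa7, linked to membrane fusion and calcium handling, and Anxa4, a membrane-binding annexin of secretory epithelia, moved less. Anxa7 ran from 8.16 through 8.84 to 8.998 on shRNA arrays, against 8.23, 8.55 and 8.83 on vector arrays, and Anxa4 from 9.14 through 9.44 to 10.03, against 9.07, 9.29 and 9.85. Arrays of the lines overlapped for both genes. The differences were 0.22 ± 0.04 for Anxa7 (SE; adjusted p = 3.52e-05) and 0.13 ± 0.03 for Anxa4 (SE; adjusted p = 7.21e-04). These calls rest on the probe set chosen, since the other probe sets gave -0.06 and 0.05 for Anxa7 (adjusted p = 0.198 and 0.413) and -0.09 for Anxa4 (adjusted p = 0.489). In untreated cells alone, where 48.2% of tested genes were called, Anxa7 stood at 0.18 (adjusted p = 0.09), and over the mean of its probe sets Anxa4 stood at 0.02 (adjusted p = 0.827).

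Anxa6, a scaffold with a doubled annexin core, and Anxa1, a mediator in the resolution of inflammation, did not pass the test. Anxa6 ran from 7.46 through 7.66 to 8.10 on shRNA arrays and from 7.40 through 7.66 to 7.95 on vector arrays, with a difference of 0.05 (95% interval -0.04 to 0.14; adjusted p = 0.335), which array weights moved to 0.09 and a call (adjusted p = 0.0289). Anxa1 ran from 11.68 through 12.02 to 12.26 on shRNA arrays and from 11.61 through 11.94 to 12.24 on vector arrays, with a difference of 0.02 (95% interval -0.05 to 0.10; adjusted p = 0.554). The 2 other probe sets of Anxa6 gave 0.01 and 0.02.

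**Figure D1:**
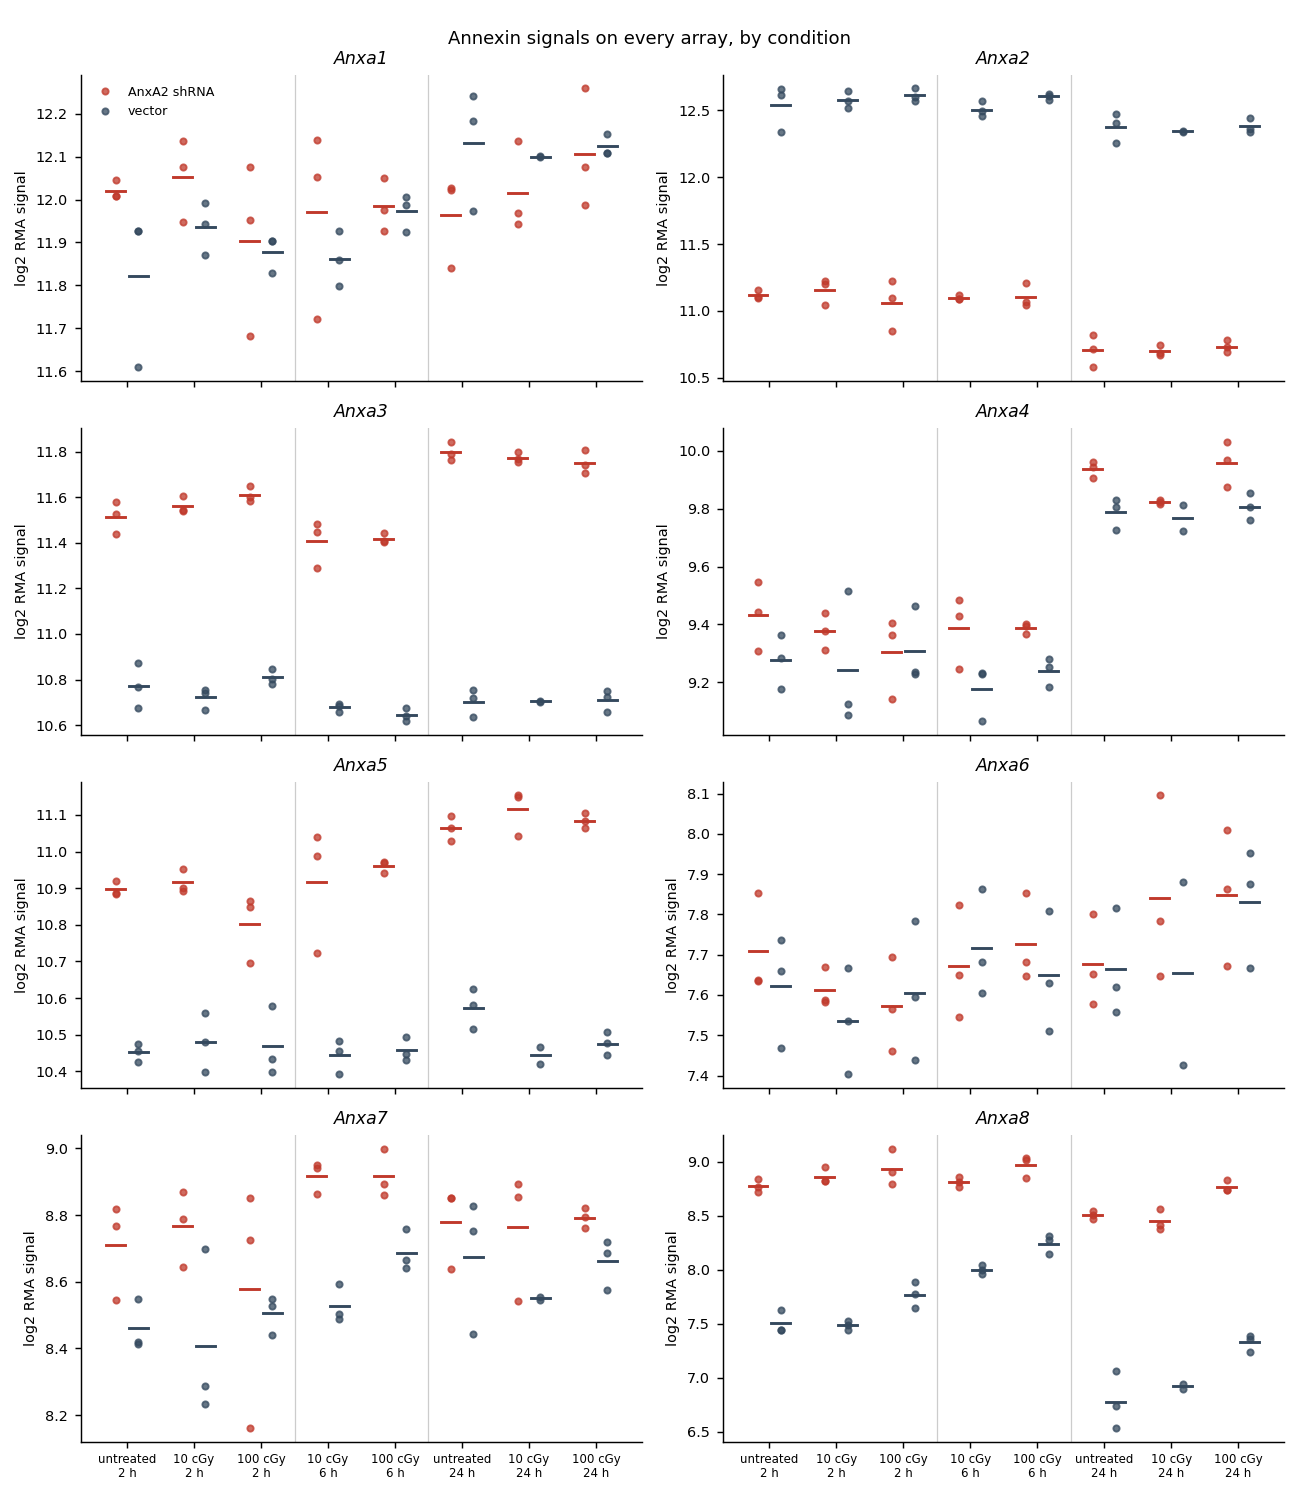
The log2 RMA signal of each annexin on every array (points) with the group mean (bars), for AnxA2 shRNA cells left of vector cells in each of the 8 conditions; the vertical axes differ between panels and do not start at 0. Points of the lines are apart for Anxa2, Anxa3, Anxa5 and Anxa8 in every condition and overlap for Anxa1 and Anxa6 over all arrays. How many of all tested genes separate in this way was not counted.

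Condition by condition, Anxa2 was lower in shRNA cells in 8 of 8, and Anxa3, Anxa5 and Anxa8 were higher in 8 of 8. Without radiation, 33.8% of all tested genes were called at 2 h and 39.3% at 24 h. The shares were 33.4%, 35.7% and 33.7% at 2, 6 and 24 h after 10 cGy, and 40%, 37.2% and 38.3% at these times after 100 cGy. Anxa7 was called in 2 of 8, at 10 cGy 2 h (0.36, adjusted p = 0.0204) and 10 cGy 6 h (0.39, adjusted p = 0.0115). Over the mean of its probe sets neither was called, at 0.02 (adjusted p = 0.917) and 0.17 (adjusted p = 0.0923). Anxa1, Anxa4 and Anxa6 were called in 0 of 8 by limma, where an unadjusted p under 0.05 was reached by Anxa1 in untreated cells at 2 h and by Anxa4 at 10 cGy 6 h. Anxa4 stood between -0.01 and 0.21, and at 10 cGy 2 h it was called without vector replicate 3 (0.27, adjusted p = 0.0149) and at 10 cGy 6 h without shRNA replicate 1 (0.28, adjusted p = 0.0235). Array weights called Anxa4 in 5 conditions, Anxa1 in 2 and Anxa6 in 1. They also called Anxa7 in untreated cells at 2 h (0.33, adjusted p = 8.54e-04). After 100 cGy they called it at 2 h (0.22, adjusted p = 0.039) and 6 h (0.24, adjusted p = 0.0189). The Anxa7 call at 10 cGy 2 h was lost without shRNA replicate 2 (0.35, adjusted p = 0.0551) or 3 (0.31, adjusted p = 0.093) and without vector replicate 1 (0.27, adjusted p = 0.129) or 2 (0.30, adjusted p = 0.099).

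The size of the line difference varied over the conditions for Anxa8 and Anxa3. A moderated F test of that variation called 10.7% of all tested genes and these 2 of the 8 annexins. For Anxa8 the line difference ran from 0.73 at 100 cGy 6 h to 1.73 in untreated cells at 24 h (F = 13.7, adjusted p = 1.49e-06). For Anxa3 it ran from 0.73 at 10 cGy 6 h to 1.10 in untreated cells at 24 h (F = 6.28, adjusted p = 0.00177). The excess of both genes was largest at 24 h and, for Anxa8, smallest at 6 h. For Anxa2 the difference ran from -1.68 in untreated cells at 24 h to -1.41 at 10 cGy 6 h (adjusted p = 0.352), and for Anxa5 from 0.33 at 100 cGy 2 h to 0.67 at 10 cGy 24 h (adjusted p = 0.24). In the other 4 annexins the adjusted p of the F test ran from 0.51 to 0.983.

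**Figure D2:**
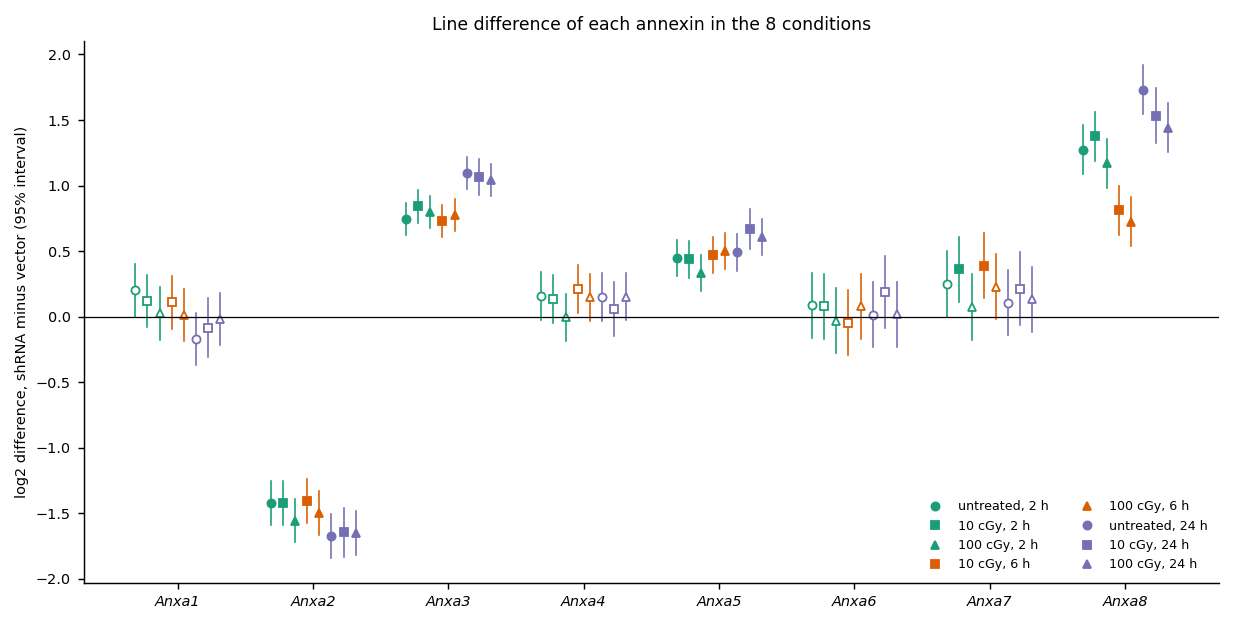
The log2 difference of AnxA2 shRNA cells minus vector cells for each annexin in the 8 conditions, with 95% intervals; filled symbols passed the adjusted p threshold and open ones did not, shape gives the dose and colour the time. Anxa8 shows its smallest differences at 6 h and its largest at 24 h.

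Of 48 pairs of a member and a time comparison within a line, 19 were called. The comparisons were 24 h minus 2 h in untreated cells, and 6 h minus 2 h and 24 h minus 6 h in irradiated cells, averaged over the doses. The irradiated comparisons share their 6 h arrays. Shares of all tested genes called were 19.2% in shRNA and 25.9% in vector cells for untreated 24 h minus 2 h. For irradiated 6 h minus 2 h they were 21.5% and 16.7%, and for irradiated 24 h minus 6 h they were 39.2% and 39%, with shRNA cells given before vector cells.

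Anxa8 followed different courses in the lines. In irradiated vector cells it rose at 6 h over 2 h by 0.49 ± 0.07 (SE; adjusted p = 7.54e-07) and was then lower at 24 h than at 6 h (-0.998 ± 0.069, SE; adjusted p = 1.71e-14). After 100 cGy the vector arrays read 7.77, 7.65 and 7.89 at 2 h, 8.15, 8.31 and 8.27 at 6 h, and 7.39, 7.24 and 7.36 at 24 h. The 6 h arrays were thus the highest and the 24 h arrays the lowest, with no overlap between times. In shRNA cells after 100 cGy the arrays read 9.12, 8.79 and 8.90 at 2 h, 8.85, 9.03 and 9.02 at 6 h, and 8.83, 8.74 and 8.74 at 24 h, and the 2 h and 6 h arrays overlapped.

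In irradiated shRNA cells Anxa8 at 6 h stood -0.01 from 2 h (adjusted p = 0.942), and at 24 h it was lower than at 6 h (-0.28 ± 0.07, SE; adjusted p = 6.73e-04). The difference between the lines in these changes, shRNA minus vector, was -0.50 ± 0.09 for 6 h minus 2 h (SE; adjusted p = 7.69e-04) and 0.72 ± 0.10 for 24 h minus 6 h (SE; adjusted p = 1.14e-06). Of all tested genes, 2.85% and 10.1% were called in these 2 comparisons. With the 3 outlying vector arrays at 2 h left out, the rise at 6 h in vector cells was 0.53 (adjusted p = 4.18e-07) and the first of the differences between the lines -0.55 (adjusted p = 2.30e-04). The other Anxa8 probe set also rose in vector cells at 6 h (0.51, adjusted p = 0.00895) and fell at 24 h (-0.85, adjusted p = 1.01e-05). Over the mean of both probe sets the fall in irradiated shRNA cells was -0.11 (adjusted p = 0.33).

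Untreated cells, sampled at 2 h and 24 h, also had less Anxa8 at the later time. The arrays at 24 h read 8.55, 8.47 and 8.51 in shRNA cells, where those at 2 h read 8.77, 8.72 and 8.84. In vector cells the arrays at 24 h read 7.06, 6.54 and 6.74, and those at 2 h read 7.44, 7.44 and 7.63. The times did not overlap in either line. The change was -0.27 ± 0.09 in shRNA cells (SE; adjusted p = 0.0355) and -0.72 ± 0.09 in vector cells (SE; adjusted p = 1.44e-07), and the difference between the lines was 0.46 ± 0.13 (SE; adjusted p = 0.0296, with 5.69% of genes called). The other Anxa8 probe set gave -0.47 in vector cells, which was not called (adjusted p = 0.0868). The shRNA call was lost by leaving out any of its 6 arrays (adjusted p = 0.0511 to 0.134, with changes from -0.30 to -0.24). Over the mean of both probe sets the shRNA change was -0.29 and not called (adjusted p = 0.0835). The call between the lines was lost without shRNA 2 h replicate 1 (0.45, adjusted p = 0.0505) or 2 (0.43, adjusted p = 0.0814), shRNA 24 h replicate 1 (0.44, adjusted p = 0.0715) or 3 (0.45, adjusted p = 0.0616), vector 2 h replicate 3 (0.39, adjusted p = 0.0984), or vector 24 h replicate 2 (0.34, adjusted p = 0.112) or 3 (0.44, adjusted p = 0.078). It was also lost over the mean of both probe sets (0.31, adjusted p = 0.336) and with array weights (0.30, adjusted p = 0.0749). Without the 3 outlying vector arrays the value was 0.39 (adjusted p = 0.0757). Without the 4 arrays with a raised Gapdh difference it was 0.39 (adjusted p = 0.103).

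**Figure D3:**
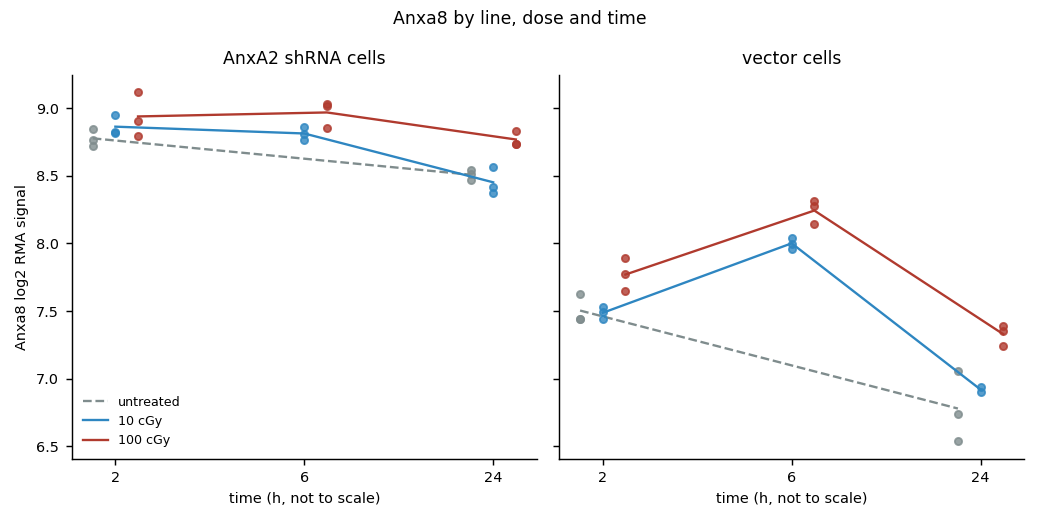
The Anxa8 log2 RMA signal on every array (points) and the group means (lines) at 2, 6 and 24 h, for AnxA2 shRNA cells on the left and vector cells on the right, in untreated cells and after 10 and 100 cGy; times are evenly spaced and untreated cells were not sampled at 6 h. Vector cells peak at 6 h after either dose, and in both lines the 100 cGy means lie above the 10 cGy means at each time.

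Anxa3 changed with time in shRNA cells, and in 2 of 3 comparisons its change differed between the lines. Untreated shRNA arrays read 11.84, 11.76 and 11.79 at 24 h, above the 11.53, 11.58 and 11.44 at 2 h, a change of 0.28 ± 0.06 (SE; adjusted p = 6.70e-04). Untreated vector arrays read 10.76, 10.64 and 10.72 at 24 h, overlapping the 10.77, 10.67 and 10.87 at 2 h (-0.07, adjusted p = 0.449). The difference between the lines was 0.35 ± 0.09 (SE; adjusted p = 0.00862). In irradiated shRNA cells Anxa3 was lower at 6 h than at 2 h (-0.17 ± 0.04, SE; adjusted p = 0.00272) and higher at 24 h than at 6 h (0.35 ± 0.04, SE; adjusted p = 2.61e-08). The first of these was not called in a fit of only the compared groups (adjusted p = 0.0809). In irradiated vector cells these values were -0.10 (adjusted p = 0.0899) and 0.05 (adjusted p = 0.469). The first of these vector values was called after a further quantile normalization (-0.12, adjusted p = 0.0444) and with array weights (-0.097, adjusted p = 0.0321). It was also called without the 4 arrays with a raised Gapdh difference (-0.105, adjusted p = 0.0429). The lines differed in the 24 h minus 6 h change (0.30 ± 0.06, SE; adjusted p = 8.59e-04), and in the 6 h minus 2 h change they stood -0.07 apart (adjusted p = 0.648).

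Anxa4 rose at 24 h in both lines. In untreated cells the change from 2 h was 0.51 ± 0.09 in shRNA cells (SE; adjusted p = 6.45e-05) and 0.51 ± 0.09 in vector cells (SE; adjusted p = 3.37e-05). In irradiated cells the change from 6 h was 0.51 ± 0.06 in shRNA cells (SE; adjusted p = 3.90e-08) and 0.58 ± 0.07 in vector cells (SE; adjusted p = 6.07e-09). The 24 h arrays lay above the earlier ones without overlap in all 4 comparisons. The other Anxa4 probe set gave 0.60 in untreated shRNA cells (adjusted p = 0.221) and 0.82 in untreated vector cells (adjusted p = 0.0513). For the irradiated change in vector cells it gave 0.54 (adjusted p = 0.0678), and none of these passed by limma. The differences between the lines were -0.01 (95% interval -0.26 to 0.25) and -0.07 (95% interval -0.26 to 0.11), neither of them called.

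Anxa2 moved the other way at 24 h. In shRNA cells it fell by 0.41 in untreated cells (adjusted p = 3.00e-04) and by 0.39 in irradiated cells (adjusted p = 1.31e-06). The untreated change was -0.16 over the mean of its probe sets (adjusted p = 0.0672), and the probe set that also fell between the lines stood at -0.05 (adjusted p = 0.911). In vector cells it fell by 0.19 in irradiated cells (adjusted p = 0.0111), and in untreated cells it stood at -0.16 (adjusted p = 0.155). Without vector 2 h replicate 3, one of the arrays that stood apart, the last value was -0.26 and passed (adjusted p = 0.0209). The differences between the lines were -0.25 ± 0.12 (SE; adjusted p = 0.22) and -0.19 ± 0.08 (SE; adjusted p = 0.158), neither of them called. With array weights the irradiated one was called (-0.19, adjusted p = 0.0303).

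The remaining time calls were small. Anxa5 in irradiated shRNA cells was higher at 24 h than at 6 h by 0.16 ± 0.05 (SE; adjusted p = 0.0069), a call lost in a fit of only the compared groups (adjusted p = 0.0586). Anxa7 in irradiated shRNA cells was higher at 6 h than at 2 h by 0.24 (adjusted p = 0.0392), of which 0.14 remained without 100 cGy 2 h replicate 2 (adjusted p = 0.219). That array had a Gapdh difference of 0.49. Without the 4 arrays with a raised Gapdh difference, the Anxa7 change was 0.15 and not called (adjusted p = 0.197). The Anxa7 call was also lost without 10 cGy 2 h replicate 1 or 2, 10 cGy 6 h replicate 2 or 3, or 100 cGy 6 h replicate 2 or 3, with values from 0.21 to 0.25 (adjusted p = 0.0563 to 0.104).

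Anxa1 in vector cells was higher at 24 h in untreated cells (0.31, adjusted p = 0.0167) and in irradiated cells (0.20, adjusted p = 0.0334). The differences between the lines in these changes were -0.37 (adjusted p = 0.119) and -0.11 (adjusted p = 0.584), neither of them called. With array weights the untreated one was called (-0.31, adjusted p = 0.024). The untreated value in vector cells was 0.21 without 2 h replicate 3 (adjusted p = 0.156), and the call was lost without 24 h replicate 1 (0.29, adjusted p = 0.0641) or 3 (0.26, adjusted p = 0.103). It was also lost in a fit of only the compared groups (adjusted p = 0.149). Without the 4 arrays with a raised Gapdh difference the value was 0.21 (adjusted p = 0.064). The irradiated call was lost without any 1 of 6 arrays, namely 100 cGy 6 h replicate 2, 100 cGy 24 h replicate 1, 10 cGy 6 h replicate 2 or 3, and 10 cGy 24 h replicate 1 or 3 (0.18 to 0.20, adjusted p = 0.0517 to 0.0812). Anxa6 was called in none of its 6 time comparisons by limma, nor did any reach an unadjusted p under 0.05. Over the mean of its probe sets the irradiated 24 h minus 6 h change in shRNA cells was called (0.24, adjusted p = 0.00334), and with array weights the irradiated 6 h minus 2 h change in vector cells (0.19, adjusted p = 0.0461).

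After X-rays, 1 annexin was called against untreated cells, in 1 comparison. Of 64 pairs of a member and a radiation comparison against untreated cells, which share those untreated arrays, the call was Anxa8 in vector cells 24 h after 100 cGy, and 3 pairs had an unadjusted p under 0.05. Of all tested genes 0.0922% were called in that comparison. In the other comparisons with 100 cGy the shares were 0.0461% in vector cells at 2 h, and 0.0231% at 2 h and 0.161% at 24 h in shRNA cells. The arrays read 7.39, 7.24 and 7.36 after 100 cGy, against 7.06, 6.54 and 6.74 untreated, with no overlap. The change was 0.55 ± 0.09 (SE; adjusted p = 0.00214), or 1.46-fold. It was 0.43 without untreated replicate 2, the lowest array, and no longer called (adjusted p = 0.0645). In a fit of only the 2 groups it was 0.55 ± 0.12 (SE; adjusted p = 0.317). The other Anxa8 probe set gave 0.57 ± 0.19 (SE; adjusted p = 0.782), which did not pass.

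In shRNA cells 24 h after 100 cGy the Anxa8 arrays read 8.83, 8.74 and 8.74, against 8.55, 8.47 and 8.51 untreated. They did not overlap, and the change of 0.26 ± 0.09 (SE; adjusted p = 0.582) did not pass. At 2 h the changes after 100 cGy were 0.16 in shRNA cells (adjusted p = 0.909) and 0.27 in vector cells (adjusted p = 0.319). With array weights the vector change at 2 h was called (0.27, adjusted p = 0.0303). The responses at 24 h differed between the lines by -0.29 ± 0.13 (SE; adjusted p = 0.997), so that a smaller response in shRNA cells was not established. By limma 0 of 32 pairs of a member and a difference of responses between lines were called, with 1 at an unadjusted p under 0.05. Of all tested genes, the differences of responses called 0.0807% for 100 cGy at 24 h and 0.0115% in each of the other 3.

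A comparison added after these values were seen averaged both lines and both times, and it called Anxa8 with 100 cGy over untreated cells (0.31 ± 0.05, SE; adjusted p = 1.27e-04). It called 0.0692% of all tested genes. Against 10 cGy, over both lines and the 3 times, Anxa8 was higher after 100 cGy by 0.25 ± 0.04 (SE; adjusted p = 5.03e-04, with 0.127% of genes called). In each line the difference between the doses was positive at 2, 6 and 24 h, at 0.08, 0.16 and 0.32 in shRNA cells and at 0.28, 0.24 and 0.41 in vector cells. The 2 pooled values share the 100 cGy arrays at 2 h and 24 h. Both stayed called without any 1 array, the largest adjusted p being 5.96e-04 and 0.00268. Since these comparisons were chosen on the values they test, they describe these arrays.

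After 10 cGy no annexin was called. All 32 changes from untreated cells lay between -0.13 and 0.16, with 0 at an unadjusted p under 0.05 and a smallest adjusted p of 0.871 by limma. Of all tested genes, 0.0115% were called at 2 h in shRNA cells and at 24 h in vector cells, and 0% in the other 2 comparisons. Averaged over lines and times, Anxa8 stood at 0.04 (95% interval -0.06 to 0.13; adjusted p = 0.839). At 6 h, where 100 cGy was set against 10 cGy, 0 of 16 pairs were called (0% of all tested genes in shRNA cells, 0.0922% in vector cells), with 1 at an unadjusted p under 0.05, namely Anxa8 in vector cells (0.24, adjusted p = 0.917). For the annexins other than Anxa8, changes after 100 cGy lay between -0.14 and 0.17.

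**Figure D4:**
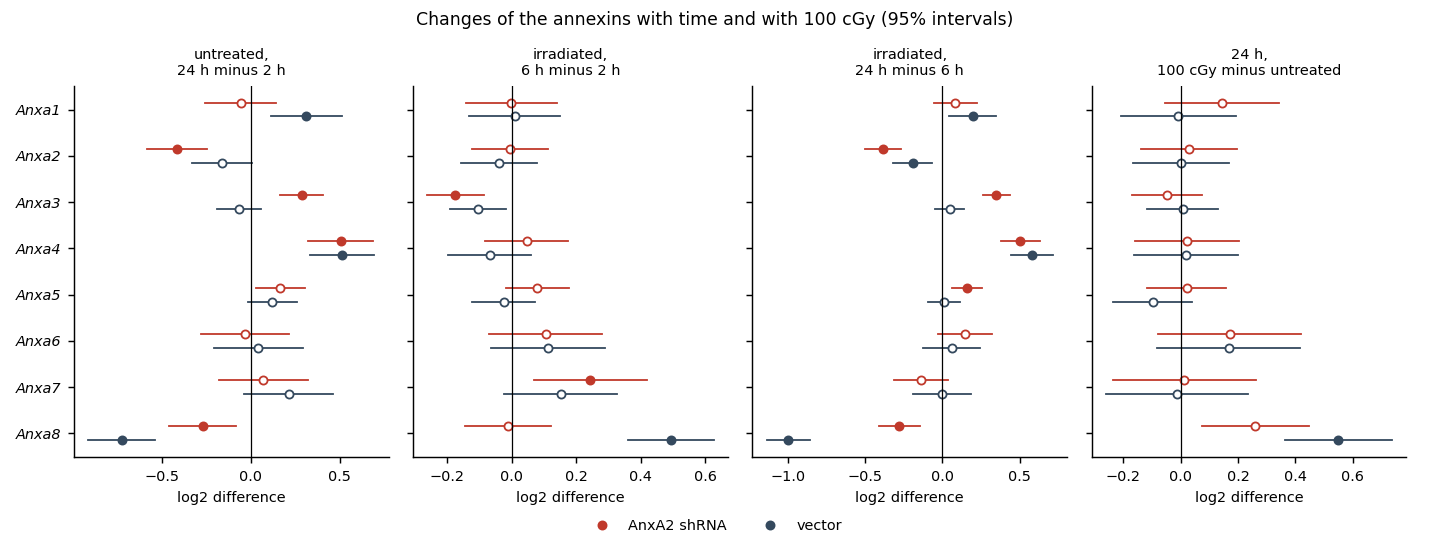
Log2 differences of the annexins with 95% intervals for 3 time comparisons and for 100 cGy minus untreated at 24 h, AnxA2 shRNA cells above vector cells in each row; filled points passed the adjusted p threshold and open ones did not, and the horizontal axes differ between panels. Anxa4 is filled and above 0 in both lines where 24 h is set against an earlier time, and open in both lines in the 100 cGy panel. The Anxa8 intervals of the lines lie apart in the 3 time panels.

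Across the 8 groups of a line, each annexin was set beside the tested gene whose group means ran most like its own, by the mean over the lines of Pearson's r. For Anxa2 these were Ddit4 (0.985), a stress-induced inhibitor of mTOR signalling, Plaur (0.981), the urokinase receptor, and Cdh6 (0.980), a cadherin. For Anxa8 it was Abcb1b (0.919), a drug efflux pump, for Anxa3 Srpx2 (0.940) and for Anxa4 Mroh1 (0.993). For Anxa5 it was Rpl4 (0.852), a ribosomal protein, for Anxa7 Smad2 (0.920), a transducer of TGF-beta signals, for Anxa6 Lasp1 (0.889), an actin-binding protein, and for Anxa1 Bcl3 (0.916), a partner of NF-kB. Each gene given alone had the highest r among all tested genes, and those of Anxa2 the 3 highest, over 8 means that share their times and doses. Being taken within each line, r leaves out the difference between the lines. That difference was -0.78 for Srpx2, against 0.89 for Anxa3, and -1.40 for Cdh6, against -1.53 for Anxa2. These likenesses serve as a description.

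Proteins known to bind annexins or to act with them went both ways between the lines. Of 18 listed partners, 14 were tested, and 7 were higher and 6 lower in shRNA cells, with a median difference of 0.11 against 0.02 over all genes. S100a10, the partner of annexin A2, averaged 11.79 in shRNA cells and 11.52 in vector cells (0.27 ± 0.06, SE; adjusted p = 1.68e-04). Ahnak, a giant scaffold that binds the annexin A2 complex, was higher by 0.75 and Sri, a calcium-binding partner of annexin A7, by 0.43. Lower were Rasa1 (-0.86), a Ras inhibitor that binds annexin A6, Pla2g4a (-0.64), a phospholipase, Plat (-0.41), the tissue plasminogen activator, and Pdcd6 (-0.40), which binds annexin A11. All 7 named here passed the test, and arrays of the lines overlapped for each.

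Of 17 listed genes of membrane repair and phospholipid scrambling, 12 were tested, and 8 were higher and 2 lower in shRNA cells, with a median of 0.19. Cav1, the coat protein of caveolae, was higher by 0.76, and Plscr1, a phospholipid scramblase, was lower (-0.79). The higher ones included Pdcd6ip (0.54), Chmp4b (0.26) and Vps4b (0.23), which act in the ESCRT machinery that reseals membranes, and Tmem30a (0.29), a subunit of lipid flippases. Calls thus numbered 13 of 14 partners and 10 of 12 repair genes, where 68.9% of all tested genes were called, and nothing particular to the lists is read from these counts.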

How the data were processed

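The 47 arrays were Affymetrix mouse arrays, and the deposited table holds log2 RMA values of 22690 probe sets, per the submitters' processing notes, with no version stated. The deposited log2 values ran from 1.84 to 14.03 and were not normalized again. Arrays were grouped by the labels' line, dose and time. The number of arrays limits the precision.

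Control probe sets (64) were left out, and 1 symbol was annotated for 20380 probe sets, several for 691 and no symbol for 1555. Each gene was read from its probe set with the highest mean, and the 30% of genes with the lowest mean were left out. Group means were fitted with limma 3.58.1 (R 4.3.3; lmFit and eBayes, 31 residual and 5.68 prior degrees of freedom), two-sided, with Benjamini-Hochberg adjustment within each comparison. The code was tested on simulated data. Positions, names and promoters came from RefSeq GRCm38.p6, which is not stated to be the build of the array. Figures used matplotlib 3.10.9.

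The members and the gene lists were chosen with earlier results of these data known. Named genes were the members, the partner and repair genes with the smallest p of the line difference, S100a10 (chosen after its values were seen), and the gene most like each member (3 for Anxa2). Alternatives covered the filter, the probe set, scaling, replicate blocks, array weights, arrays that stood apart and each array in turn.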

Additional observations from a re-analysis of the deposited data

Results flagged for a closer look

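The changes with time of 2 annexins differed between the lines by a test of the difference itself. For Anxa3 the change in shRNA cells exceeded that in vector cells by 0.353 for untreated 24 h minus 2 h and by 0.303 for irradiated 24 h minus 6 h. For Anxa8 the change in shRNA cells minus that in vector cells was 0.456 for untreated 24 h minus 2 h, -0.504 for irradiated 6 h minus 2 h and 0.718 for irradiated 24 h minus 6 h. The first of the Anxa8 values is the one that lost its call without any 1 of 7 arrays, and also over the mean of both probe sets.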

How the results depend on the processing

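The 6 calls of the line difference over all conditions numbered 5 to 7 under the other settings, and 6 without any 1 array. The 34 calls in single conditions numbered 32 to 45 (33 to 36 without 1 array), the 19 time calls 14 to 27 (18 to 21), and the 5 differences between lines 4 to 6 (4 to 5). The radiation count of 1 was 2 with array weights and 0 in fits of only the compared groups, and 0 to 1 without 1 array. The 2 annexins whose line difference varied numbered 5 with array weights, adding Anxa1, Anxa2 and Anxa7. Signs turned with other probe sets, at 0.00809 for Anxa2, -0.0924 for Anxa4 and -0.0615 for Anxa7. The Anxa5 difference at 100 cGy 2 h (0.33) was not called in a fit of only its 2 groups (adjusted p = 0.0655). The causes were not tested. Of 3088 other values of members, 3015 kept direction and side of the threshold, as did 3538 of 3576 without 1 array.

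Same-numbered arrays of 1 line and time had a median correlation of 0.23 (-0.29 to 0.72; 27 of 40 pairs over 0.1), against -0.10 for arrays with different numbers (18 of 80 over 0.1), and 30 of 47 arrays were most like their own number. This is a hint of pairing from the data, but the labels state no pairing and not every pair passed 0.1, the rule set for it, so the fits without a block were kept. A replicate block over all groups gave 6, 34, 1, 19 and 5 calls in the same order of comparisons (line, single conditions, radiation, time, time between lines), and within line and time 6, 35, 1, 19 and 5, adding Anxa4 at 10 cGy 6 h (0.21, adjusted p = 0.0377).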

Other observations

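Annexins outside the rule had these mean signals. Anxa9 stood at 5.13 in shRNA cells and 4.40 in vector cells, where shRNA arrays ran from 4.82 to 5.46 and vector arrays from 4.09 to 4.72. Anxa10 stood at 2.73 in shRNA cells and 2.68 in vector cells, and Anxa13 at 2.64 in shRNA cells and 2.69 in vector cells. Anxa10 and Anxa13 were thus below the low-signal limit of 4.35, whereas Anxa9, with a mean of 4.77 over all arrays, was above it. None of these annexins was tested as a member.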
